A study of Mus musculus with 4 samples.

Results

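DNA methylation was examined at 9 genes that carry the signal of insulin and of insulin-like growth factors (IGF) from the cell surface to the nucleus. They were the receptors Insr and Igf1r, the adaptors Irs1 and Irs2, the phosphoinositide 3-kinase (PI3K) subunits Pik3ca and Pik3r1, the kinases Akt1 and Akt2 and the transcription factor Foxo1. The genes were chosen by name, as 9 of the 21938 protein-coding genes of the mouse annotation on the autosomes, X and Y. A methylated region, made by joining peaks that overlapped between libraries, was assigned to a gene when it touched its body or the 2 kb before its start. This held for 99 of the 186169 regions of the data set. A region is called shared here when each of the 4 libraries had a peak in it, as 36 of the 99 and 75052 of the 186169 did. The question was whether these regions differed between islets with and without Raptor, the defining subunit of the kinase complex mTORC1.

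The islets came from C57BL/6 mice 8 weeks old, with 2 libraries from WT and 2 from βRapKO animals. All mice were homozygous for the floxed Raptor allele (Raptor lox/lox), and only the βRapKO mice also carried RipCre, in which a rat insulin promoter drives Cre. The WT mice were littermates without Cre, so that a Cre control without the floxed allele was not part of the comparison, and the RipCre line had a mixed C57BL/6J and 129/SvJ background. The promoter is active in beta cells, whereas DNA was taken from whole handpicked islets, which also hold alpha, delta, endothelial and other cells. Fewer methylated copies per beta cell and a different share of cell types cannot be told apart in such DNA, and since these libraries measure DNA alone and no expression data were used here, the tissue was not checked against marker genes. Nothing in the labels says whether the libraries came from separate mice, so that p-values measure only the spread between these libraries.

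Insulin and IGF bind receptor tyrosine kinases on the cell surface, which phosphorylate the adaptors IRS1 and IRS2. The adaptors recruit PI3K, whose lipid product brings AKT to the membrane, and active AKT phosphorylates FOXO1 and keeps it out of the nucleus. AKT also activates mTORC1, and mTORC1 in turn dampens the IRS adaptors. In beta cells this pathway is known for its part in growth, survival and adaptation to insulin demand, with IRS2 as the adaptor best known for beta cell mass. Methylation of CpG sites is usual over gene bodies of active and inactive genes, while the CpG-dense start sites of genes such as these are usually free of it.

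MeDIP-seq uses an antibody against methylated cytosine to enrich sheared DNA, so that sequenced tags pile up where methylated CpG sites lie close together. The sequences under the peaks show what the antibody had to bind. The following 200 bases of mm10, written 5′ to 3′ on the strand of the gene with every CpG in capitals, are centred on the summit of the peak with the most tags in a region. The regions of Insr, Pik3r1 and Akt1 are the most heavily tagged of their gene. The region of Irs2 (1.89 to 4.07 kb from the start) and that of Foxo1 (peaks in βRapKO only) were chosen after their values were seen.
Insr region 13, chr8:3140472-3140671, minus strand: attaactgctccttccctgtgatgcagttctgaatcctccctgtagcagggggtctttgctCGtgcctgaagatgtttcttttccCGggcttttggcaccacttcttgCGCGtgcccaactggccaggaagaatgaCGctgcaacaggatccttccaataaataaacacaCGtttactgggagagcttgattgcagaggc
Irs2 region 1, chr8:11004781-11004980, minus strand: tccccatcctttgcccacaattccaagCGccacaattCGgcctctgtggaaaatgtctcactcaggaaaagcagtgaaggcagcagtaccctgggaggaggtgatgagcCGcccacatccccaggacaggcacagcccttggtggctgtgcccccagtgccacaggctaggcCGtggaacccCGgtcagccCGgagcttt
Pik3r1 region 7, chr13:101686171-101686370, minus strand: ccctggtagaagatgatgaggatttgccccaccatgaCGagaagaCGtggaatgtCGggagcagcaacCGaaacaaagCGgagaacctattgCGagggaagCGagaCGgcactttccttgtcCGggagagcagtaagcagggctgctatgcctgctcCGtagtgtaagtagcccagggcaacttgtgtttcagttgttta
Akt1 region 3, chr12:112656976-112657175, minus strand: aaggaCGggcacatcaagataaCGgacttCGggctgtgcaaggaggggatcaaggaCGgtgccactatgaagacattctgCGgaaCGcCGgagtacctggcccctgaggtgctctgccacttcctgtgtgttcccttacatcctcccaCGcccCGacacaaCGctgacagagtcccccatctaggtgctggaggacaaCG
Foxo1 region 5, chr3:52339305-52339504, plus strand: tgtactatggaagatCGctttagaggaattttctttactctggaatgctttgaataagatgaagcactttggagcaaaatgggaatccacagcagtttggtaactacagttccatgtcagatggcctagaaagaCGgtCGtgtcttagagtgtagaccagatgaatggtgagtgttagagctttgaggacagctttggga

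The Akt1 stretch, at exons that encode the kinase domain, held 11 CpG sites, and that of Pik3r1 held 10. The stretches of Insr and Irs2 held 6 each and that of Foxo1, from within intron 1, held 3. Over the 36 shared regions of these genes, the median density at the summit was 3.5 CpG per 100 bp, against 1.76 over the regions as a whole. The summit was denser than its region in 32 of them. The same medians over all 75052 shared regions were 3.5 and 1.78, with a denser summit in 94.4% of the regions. The peaks of the pathway genes thus lay on CpG-rich spots, as those of other regions did.

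The starts of the genes looked different. The 250 bases before the Pik3r1 start, from the RefSeq promoter table of GRCm38.p6, are shown as an example. They held 30 CpG sites, and no library had a peak there. Another Pik3r1 window of the table, of 300 bases, held only 6 CpG sites.
Pik3r1 promoter, chr13:101768218-101768467, minus strand: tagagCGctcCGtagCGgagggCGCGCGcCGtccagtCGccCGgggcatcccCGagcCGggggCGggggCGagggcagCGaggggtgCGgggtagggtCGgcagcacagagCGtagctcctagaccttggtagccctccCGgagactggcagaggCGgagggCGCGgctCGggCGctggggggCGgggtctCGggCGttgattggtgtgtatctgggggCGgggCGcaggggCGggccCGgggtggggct
The table held promoter windows of 300 bases (250 before the start and 50 after it) for 8 of the 9 genes, 13 windows in all. Their density ranged from 0 to 16 CpG per 100 bp with a median of 6.67, against 2.33 over the 32851 windows of the table. In no library did a peak lie within 500 bp of the annotated start of any of the 9 genes. Of all protein-coding genes, 12.9% had such a peak in at least 1 library. The nearest peak of Akt2 was 988 bp from its start, those of Foxo1, Akt1, Irs1 and Irs2 were 1351, 1364, 1380 and 1893 bp away, and those of Igf1r, Pik3r1, Insr and Pik3ca were 4735, 11266, 20569 and 34666 bp away. The regions nearest to the starts of Irs1 and Irs2 lay mostly inside the long first exon that holds nearly all coding sequence of these genes.

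The libraries had between 25585533 and 31330751 tags after removal of duplicates. WT replicate 2 was the deepest and had 80 peaks at the pathway genes, while the other libraries had 60 to 64. The caller gave the same libraries 117638 to 151093 peaks in all, again with the most in WT replicate 2. A peak is called where enough tags accumulate over the local background, so a region without a call has an unknown tag number below the threshold, not a count of 0. The region of Rptor (the gene of Raptor) with the most tags had 9.69 and 9.86 CPM (tags per 1000000 tags of the library) in WT and 7.70 and 9.43 CPM in βRapKO. It lies in an intron and does not check the deletion.

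The 36 shared regions (36.4% of the 99, against 40.3% of all regions) were the only ones with a tag count in every library. Peaks were called in 3 libraries at 17 regions, in 1 library of each genotype at 11 and in a single library at 27. A single call was as frequent over all regions, at 27.5%. Of the 27 single calls, 16 were in WT replicate 2, a pattern that 12.9% of all regions shared and that made up 16.2% here. Both WT libraries but no βRapKO library had a peak at 5 regions, and the reverse held at 3. These were 5.05% and 3.03% of the regions, while the background shares were 4.16% and 1.58%. The WT-only regions were regions 13 and 35 of Igf1r and 1 region each of Irs2, Pik3ca and Pik3r1, and the βRapKO-only regions were region 43 of Igf1r and 2 regions of Foxo1.

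**Figure D1:**
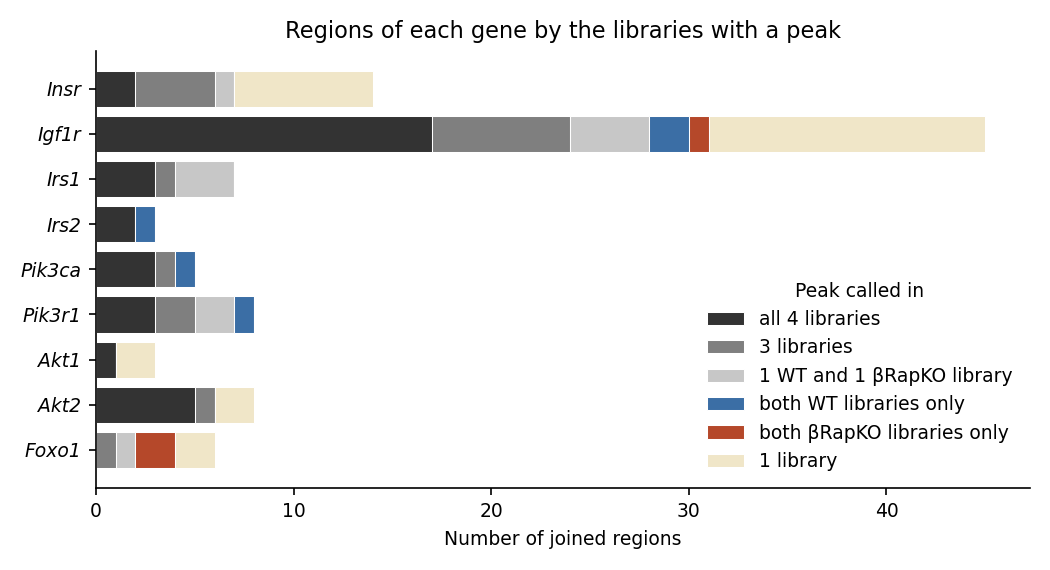
Joined regions of each gene, stacked by call pattern (horizontal axis, number of regions). Igf1r had 45 of the 99 regions and 17 of the 36 shared ones, and Foxo1, with 6 regions, had none that was shared.

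A coding or untranslated exon was overlapped by 32 regions, of which 19 (59.4%) were shared. Of the 62 regions that lay in introns alone, 16 (25.8%) were shared. Igf1r supplied 34 of these 62, and without it 13 of 21 exon regions and 5 of 28 intron regions were shared. Over all protein-coding genes, 48.4% of the regions over an exon and 34.0% of those in introns alone were shared. No test of the difference was made. Exon-overlapping regions had a median of 2.14 CpG per 100 bp and intronic regions 1.61. The 36 shared regions were also longer, with a median of 1638 bp against 1209 bp over all 99. The part of density or of joined length in the difference was not tested. Where each library had 1 peak, as at 34 of the 36 regions, the summits of the 4 libraries spanned a median of 67.5 bp, with 23 regions (67.6%) within 100 bp. The corresponding median over all regions was 55 bp, with 70.9% within 100 bp.

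No region of the 9 genes passed an FDR of 0.05 between βRapKO and WT islets (edgeR quasi-likelihood test, Benjamini-Hochberg over all 75052 regions), and no region of the data set did (0%). The smallest adjusted p at these genes was 0.567. Of the 36 regions, 20 had lower and 16 had higher CPM in βRapKO, so that 55.6% were lower against 60.8% of all regions. The median log2 fold-change of CPM (βRapKO over WT) was -0.06, the same as the -0.06 of all regions. With the tags inside peaks as the library size, the median turned to 0.10, as did that of all regions (0.10), and only 9 of the 36 regions were lower, beside 31.4% of all. An unadjusted p under 0.05 was reached by 2 lower regions (background 3.93%) and 3 higher regions (background 1.88%). The same 5 regions differed by more than 1.5-fold in mean CPM, a fold that 1.77% of all regions passed downwards and 1.29% upwards. They were region 1 of Irs2 and region 5 of Akt2, lower in βRapKO, and regions 22 and 39 of Igf1r and region 7 of Pik3r1, higher in βRapKO. By CPM the βRapKO pair lay wholly below the WT pair at 8 regions and wholly above it at 6, with backgrounds of 25.3% and 11.6%.

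Tag numbers also depend on how wide a peak was called, since only tags inside peaks were counted. The covered length was larger in βRapKO at 28 of the 36 regions (77.8%, against 70.5% of all regions). Across the 36 regions the Spearman correlation of the log2 ratio of covered length with the log2 fold-change of CPM was 0.56, and across all regions it was 0.55. This is a description, since both quantities come from the same peak calls and neighbouring regions of a gene are not independent. Expressed as tags per kb of peaks, 31 of the 36 regions were lower in βRapKO (86.1%, against 79.8% of all regions). This measure divides by the called length, so that it too depends on how wide a peak was called. The median log2 fold-change was then -0.20, beside -0.17 over all regions. The βRapKO pair lay wholly below the WT pair by this measure at 18 regions and wholly above it at 3, with backgrounds of 41.1% and 4.54%. On this scale the smallest adjusted p was 0.207 (edgeR). An unadjusted p under 0.05 was reached by 5 lower and 1 higher of the 36 regions, and by 9777 of all 75052 regions in either direction. No test of a difference between these regions and the rest of the data set was made.

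**Figure D2:**
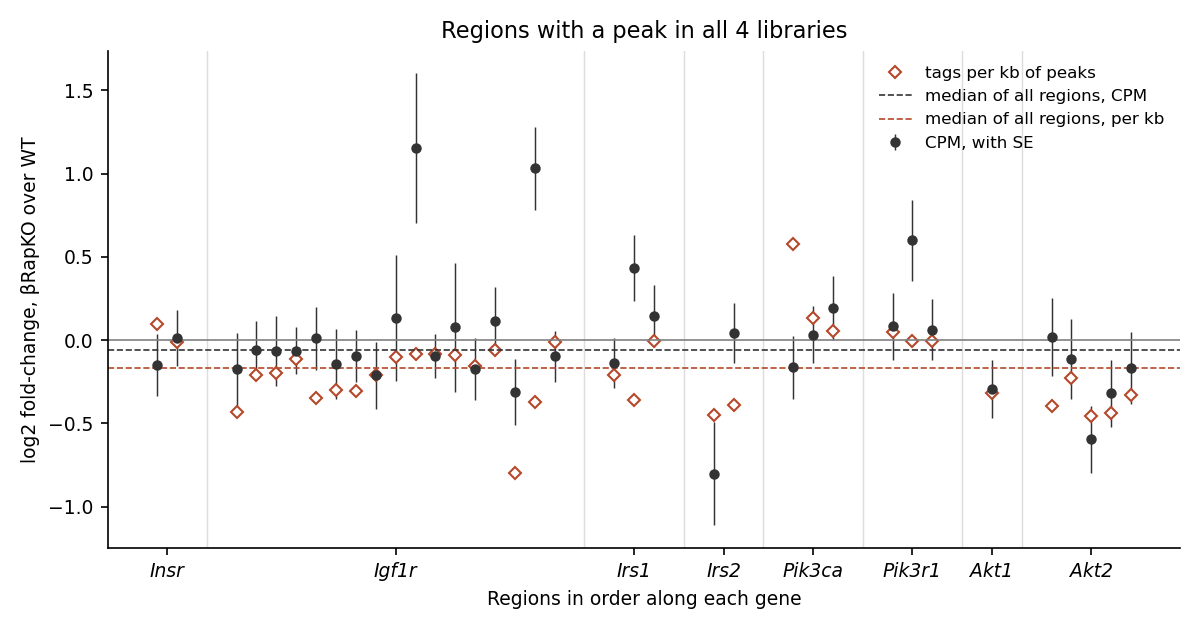
The log2 fold-change (βRapKO over WT) of the 36 shared regions, ordered along each gene. Filled circles are CPM with the SE of the fit, open diamonds are tags per kb of peaks, and dashed lines are the medians over all 75052 regions (-0.06 for CPM and -0.17 per kb). The 3 highest circles belong to regions 22 and 39 of Igf1r and region 7 of Pik3r1, whose diamonds lie at -0.08, -0.37 and -0.01.

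**Figure D3:**
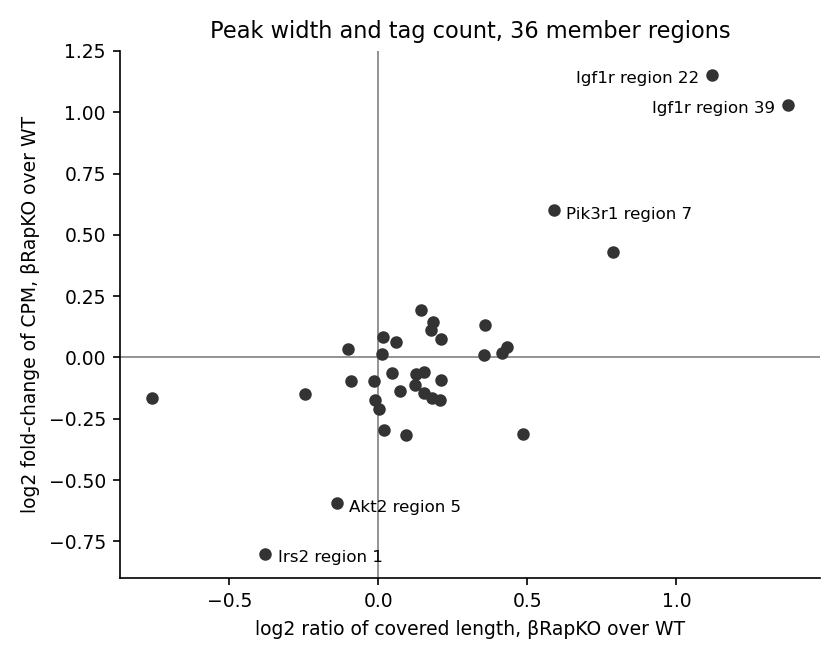
Log2 ratio of covered length (horizontal axis) against log2 fold-change of CPM (vertical axis), both βRapKO over WT, for the same 36 regions. Regions 22 and 39 of Igf1r lie at the upper right, with log2 length ratios of 1.12 and 1.37.

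Insr encodes the insulin receptor, a tyrosine kinase. Its window (chromosome 8, 3122061 to 3279617, minus strand, with 2 kb upstream) held 14 regions, 2 of them shared and 7 called in a single library. Region 13, from 3139844 to 3141546, had the most tags. It lies 138 to 140 kb from the start, beyond the end of the principal coding transcript and within the last intron of a longer transcript that is annotated as a target of nonsense-mediated decay. Region 13 had 3.71 and 3.48 CPM in WT and 3.42 and 3.84 CPM in βRapKO. The ranges overlapped, with a log2 fold-change of 0.02 ± 0.17 (SE, adjusted p = 0.993). Its fold enrichment over the local background, given by the caller, was 14.0 and 17.6 in WT and 16.3 and 17.3 in βRapKO, and these were the highest values of the pathway genes in each library. The 4 summits fell within 31 bp of each other. Region 8, over exon 5, had 1.798 and 1.596 CPM in WT and 1.574 and 1.474 CPM in βRapKO. Its βRapKO values were below both WT values, but its log2 fold-change of -0.15 ± 0.19 did not pass the test (adjusted p = 0.930) and was 0.10 per kb.

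Igf1r encodes the type 1 IGF receptor, the closest relative of the insulin receptor, and is the largest of the 9 genes. It had 45 regions along chromosome 7, 67952827 to 68233668, or 1.59 per 10 kb of its window. Akt2 had nearly as many per 10 kb (1.56), Pik3ca had 0.687 and Foxo1 0.691, and the median over all genes was 1.04. Of its 17 shared regions, 11 were lower and 6 higher in βRapKO by CPM (64.7% lower, against 60.8% of all regions). All 17 were lower per kb of peaks, as were 79.8% of all regions. The log2 fold-changes of CPM ran from -0.31 to 0.13, apart from regions 22 and 39 at 1.15 and 1.03. Region 24, in intron 2 (68114931 to 68119494), had the most tags of the gene, with 9.54 and 11.6 CPM in WT and 10.3 and 9.46 CPM in βRapKO. The genotypes overlapped there, with a log2 fold-change of -0.10 ± 0.13 (SE, adjusted p = 0.929), and the peak was 4469 to 4564 bp wide in every library.

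Region 39 of Igf1r spans exons 11 to 13 of the coding sequence, from 68193036 to 68196626. Its level was 3.87 and 2.23 CPM in WT and 6.43 and 5.93 CPM in βRapKO, with the βRapKO pair above the WT pair. The log2 fold-change was 1.03 ± 0.25 (SE, adjusted p = 0.567), the smallest adjusted p of the pathway genes. Without WT replicate 2 it was 0.68. The peaks behind these values differed in shape. The WT peaks were 1774 and 896 bp wide and did not overlap each other, from 68194042 to 68195815 in replicate 1 and from 68193036 to 68193931 in replicate 2. The βRapKO peaks were 3441 and 3481 bp wide and covered the greater part of both. Per kb of peaks the direction turned, with a log2 fold-change of -0.37 and the βRapKO pair below the WT pair. Region 22, in intron 2 (68100387 to 68104746), had 4.38 and 1.53 CPM in WT and 4.69 and 8.23 CPM in βRapKO. The lowest βRapKO value was close to the highest WT value, and the log2 fold-change of 1.15 ± 0.45 (adjusted p = 0.855) became -0.08 per kb. By CPM it was 0.56 without WT replicate 2, 0.69 without βRapKO replicate 2 and 2.07 without WT replicate 1. The peaks of βRapKO replicate 1 (68100403 to 68102739) and WT replicate 2 (68102889 to 68103421) did not overlap, so that their tags came from different stretches of the region. The summits of the 2 WT peaks lay near 68103161 and those of the βRapKO peaks near 68101155. The highest point of region 22 was thus not at the same place in the WT and the βRapKO libraries. At region 39 the summits lay at 68195051 and 68195049 in replicate 1 of WT and βRapKO, and at 68193410 and 68193432 in replicate 2. Whether the place of a summit went with genotype was not tested.

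Of the Igf1r regions called in 1 genotype alone, region 35, over exon 5, had a peak of 40 tags in WT replicate 1 and 60 in WT replicate 2, with fold enrichments of 5.17 and 6.30. Region 13, in intron 2, had 85 and 77 tags at enrichments of 3.73 and 4.64. Region 43 had no WT call and 137 and 56 tags in βRapKO replicates 1 and 2, at enrichments of 5.23 and 5.32. It reaches over exon 20, which encodes part of the kinase domain, through the peak of βRapKO replicate 1 alone. The peak of βRapKO replicate 2 ended 265.221 kb from the start of the gene, before exon 20 begins at 265.575 kb. The median enrichment of all peaks at the pathway genes was 6.41 to 6.82 in the 4 libraries.

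**Figure D4:**
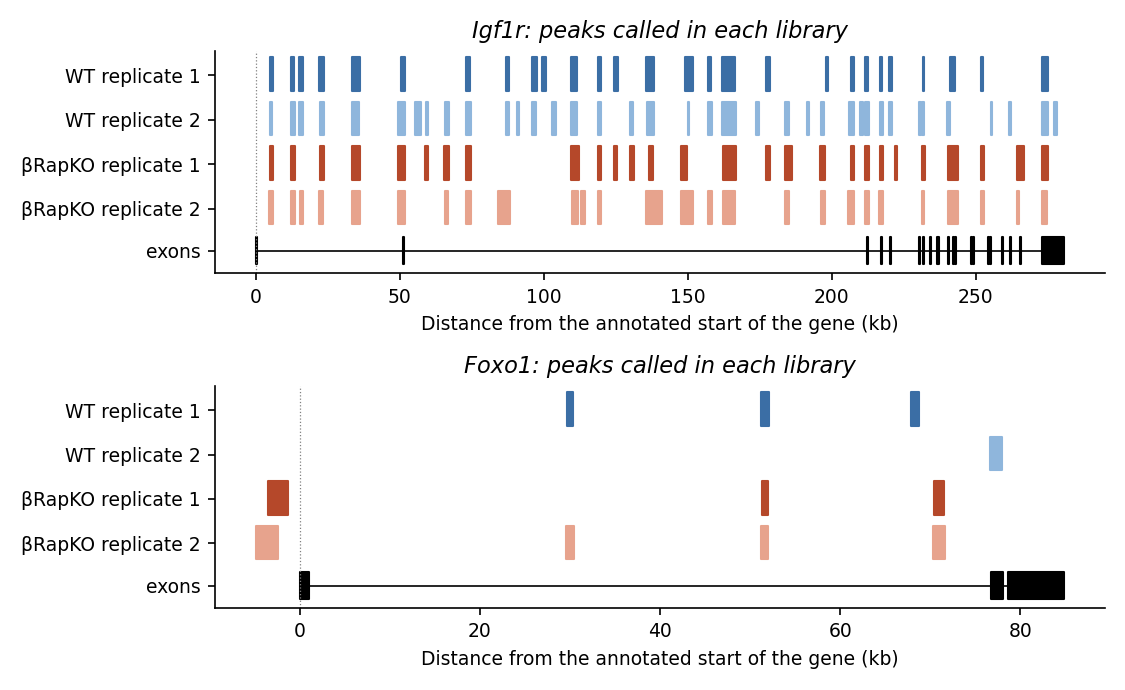
Peaks of each library along Igf1r and Foxo1, drawn against the distance from the annotated start in kb, with the exons of the principal transcript in black. No bar touches either start, most Igf1r peaks recur in several libraries, and the Foxo1 peaks upstream of the start and those in the last part of intron 1 that are drawn in both βRapKO rows have no WT counterpart.

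Irs1 and Irs2 encode the main adaptors of both receptors. Region 1 of Irs1 (chromosome 1, 82286588 to 82290036) covers nearly the whole coding sequence, 3236 coding bases of exon 1. It had 6.61 and 7.98 CPM in WT and 6.30 and 6.99 CPM in βRapKO, which overlapped, with a log2 fold-change of -0.14 ± 0.15 (SE, adjusted p = 0.909). Region 2 of Irs1, in intron 1, had 2.03 and 2.39 CPM in WT and 3.22 and 2.78 CPM in βRapKO. There the log2 fold-change was 0.43 ± 0.20 (adjusted p = 0.858) for CPM and -0.36 per kb of peaks. Region 7, at the end of the gene, also overlaps the gene model Gm9747, so that its tags belong to neither gene alone.

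At Irs2, region 1 (chromosome 8, 11004391 to 11006565) lies in the coding part of exon 1. It had 2.31 and 4.31 CPM in WT and 1.71 and 2.13 CPM in βRapKO. Both βRapKO values were below both WT values, but WT replicate 1 was nearer to them than to WT replicate 2. The log2 fold-change was -0.80 ± 0.31 (SE, adjusted p = 0.853), the lowest of the 36 regions, and -0.45 per kb. Without WT replicate 2 it was -0.27, and without WT replicate 1 it was -1.17. The peak was 2127 bp wide in WT replicate 2 and 776 to 1189 bp in the other libraries, while all 4 summits fell within 43 bp. The caller's enrichment was 13.02 and 10.78 in WT and 7.37 and 10.87 in βRapKO. Region 3, over the 3′ UTR in exon 2 (10985903 to 10987317), had 3.44 and 4.31 CPM in WT and 3.94 and 4.08 CPM in βRapKO. Here the ranges overlapped, with a log2 fold-change of 0.04 ± 0.18 (adjusted p = 0.977). Region 2, in intron 1, had 31 and 45 tags in the WT libraries and no call in βRapKO.

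Pik3ca encodes the catalytic subunit p110α of PI3K. Its region with the most tags, region 5 (chromosome 3, 32463329 to 32465260), lies wholly in the 3′ UTR. It had 2.97 and 2.52 CPM in WT and 2.87 and 3.39 CPM in βRapKO, which overlapped (log2 fold-change 0.20 ± 0.19, SE, adjusted p = 0.900). The 4 summits lay within 6 bp, the closest of the 34 regions compared. Pik3ca was the one gene whose tested regions were all higher per kb of peaks, at 0.06 to 0.58, and at 2 of its 3 regions the βRapKO pair lay above the WT pair on that scale (background 4.54%). The 0.58 belonged to region 2 at exon 2, where CPM was 1.37 and 1.15 in WT and 1.13 and 1.10 in βRapKO and the mean covered length was 960 bp in WT and 567.5 bp in βRapKO. Region 3, in intron 14, had 23 and 24 tags in the WT libraries and no call in βRapKO, and 23 was the fewest tags of any peak at the 9 genes.

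Pik3r1 encodes p85α, the main regulatory subunit, which binds phosphorylated IRS proteins and holds p110. Region 7 (chromosome 13, 101685638 to 101688241), over exons 12 to 15 near the 3′ end, had 3.67 and 2.23 CPM in WT and 4.21 and 4.66 CPM in βRapKO. The βRapKO pair lay above the WT pair, just past 1.5-fold in the mean, with a log2 fold-change of 0.60 ± 0.24 (SE, adjusted p = 0.858). It was 0.27 without WT replicate 2 and 0.99 without WT replicate 1. The summits fell within 31 bp and the enrichment was 7.13 to 7.29 in all 4 libraries. The peak was 2174 and 1273 bp wide in WT and 2590 and 2593 bp in βRapKO, and per kb the log2 fold-change was -0.01. The other tested regions of Pik3r1, 6 and 8, had log2 fold-changes of 0.08 and 0.06. Region 4, in intron 2, had 31 and 25 tags in the WT libraries and no call in βRapKO.

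Akt1 and Akt2 encode the kinases that PI3K activates, and Akt2 is the isoform best known for glucose metabolism. Akt1 had 1 shared region, region 3 (chromosome 12, 112656172 to 112657969), over exons 8 to 12. It had 5.12 and 6.61 CPM in WT and 4.65 and 4.94 CPM in βRapKO. Both βRapKO values were lower, with a log2 fold-change of -0.29 ± 0.17 (SE, adjusted p = 0.864). Without WT replicate 2 it was -0.09, and without WT replicate 1 it was -0.46. The widths were alike, 1614 to 1685 bp, and per kb the value was -0.32. At Akt2, 4 of 5 tested regions were lower by CPM and all 5 per kb, beside 60.8% and 79.8% of all regions. Region 5, in intron 4 (chromosome 7, 27626134 to 27626737), had 1.99 and 1.56 CPM in WT and 1.20 and 1.13 CPM in βRapKO. These values, from 33 to 51 tags, did not overlap, and the log2 fold-change was -0.59 ± 0.20 (adjusted p = 0.849), with -0.45 per kb. Its peaks were 450 to 562 bp wide with summits within 19 bp, so that here the difference in CPM did not go with a wide difference in covered length. Region 4, also in intron 4 and with the most tags of the gene, had 3.60 and 3.70 CPM in WT and 2.57 and 4.18 CPM in βRapKO, where the WT values lay between those of βRapKO. Region 1 of Akt2, the region nearest to any of the 9 starts, was called in both WT libraries and in βRapKO replicate 1, at 2.42, 2.94 and 2.91 CPM. Akt1 region 1 also falls in the window of the neighbouring gene Zbtb42.

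Foxo1 encodes the transcription factor that insulin signalling keeps out of the nucleus. It was the only one of the 9 genes without a shared region, and so the only one without a test. Of the 795 protein-coding genes with 6 regions, 5.28% also had none. Its 2 regions called in both βRapKO libraries lay upstream and in intron 1. The upstream region 1 (chromosome 3, 52263465 to 52266985) had 82 and 99 tags in βRapKO replicates 1 and 2, or 2.81 and 3.39 CPM, at enrichments of 6.96 and 4.77. The peak of βRapKO replicate 2 ended at 52265892, farther than 2 kb from the start, so that the region belonged to Foxo1 through the peak of replicate 1 alone. The summits of replicates 1 and 2 lay at 52265332 and 52263986. These peaks were not joined when an overlap of 50% of the shorter peak was required. Region 5, in intron 1, had 45 and 49 tags, or 1.54 and 1.68 CPM, at enrichments of 7.58 and 7.02, with summits at 52339359 and 52339405. A peak over exon 2, region 6, was called in WT replicate 2 alone, at 1.79 CPM. Region 3 was called in βRapKO at 1.61 and 1.37 CPM and in WT replicate 1 at 1.13 CPM. The calls in βRapKO alone thus do not show that WT islets had no tags there, and the difference was not tested.

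Tags were also added per gene over its shared regions. Of the 8 genes with such a sum, 4 were lower and 4 higher in βRapKO, while 69.1% of the 13365 genes tested were lower. None passed an FDR of 0.05 (0% of all genes), the smallest adjusted p was 0.603, and an unadjusted p under 0.05 was reached by 0 of the 8, against backgrounds of 7.32% lower and 1.24% higher. Pik3r1 had 7.74 and 5.78 CPM in WT and 8.15 and 8.67 CPM in βRapKO, or 6.76 ± 1.39 and 8.41 ± 0.373 (SD, n = 2 each). It was the one gene with the βRapKO pair above the WT pair, a separation seen at 8.51% of all genes. The log2 fold-change was 0.32 ± 0.16 (SE, adjusted p = 0.603). Akt1 and Akt2 had the βRapKO pair below the WT pair, as did 32.6% of all genes. Akt2 had 12.8 and 11.7 CPM in WT and 9.75 and 11.4 CPM in βRapKO, with a log2 fold-change of -0.21 ± 0.13 (SE, adjusted p = 0.651). Akt1, whose sum is its region 3, was at -0.30 ± 0.17 (adjusted p = 0.643).

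The other 5 sums overlapped between the genotypes. Irs2 had 5.74 and 8.62 CPM in WT and 5.65 and 6.20 CPM in βRapKO, with a log2 fold-change of -0.29 ± 0.19 (SE, adjusted p = 0.692), and WT replicate 2 stood above the other 3 libraries. Igf1r had 68.7 and 70.8 CPM in WT and 67.1 and 80.8 CPM in βRapKO, with a log2 fold-change of 0.08 ± 0.09 (adjusted p = 0.807), where βRapKO replicate 2 was the highest. Insr, Irs1 and Pik3ca were at -0.04, 0.03 and 0.07. Per kb of peaks, 5 of the 8 sums were lower, against 88.2% of all 13365 sums. None of the 8 passed an FDR of 0.05 on this scale, which 1.79% of all sums did. The 5 lower sums ran from -0.35 at Akt2 to -0.21 at Igf1r, while Pik3r1, Insr and Pik3ca were at 0.00, 0.05 and 0.19. In tags per kb of peaks, Akt1 was the highest in 3 of the 4 libraries. It had 3.17 and 3.98 CPM per kb in WT and 2.76 and 3.02 in βRapKO. Irs2 was above it in WT replicate 1, at 3.25 CPM per kb. Pik3r1 was the lowest in 3 libraries, at 1.66 to 1.81 CPM per kb over the 4, with Pik3ca below it in WT replicate 2 at 1.66. Tags per kb also varied with CpG density, with a Spearman correlation of 0.41 across all shared regions and 0.11 across the 36, and region 3 of Akt1 was the densest of the 36, at 3.34 CpG per 100 bp. The part of density in the order of the genes was not tested.

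**Figure D5:**
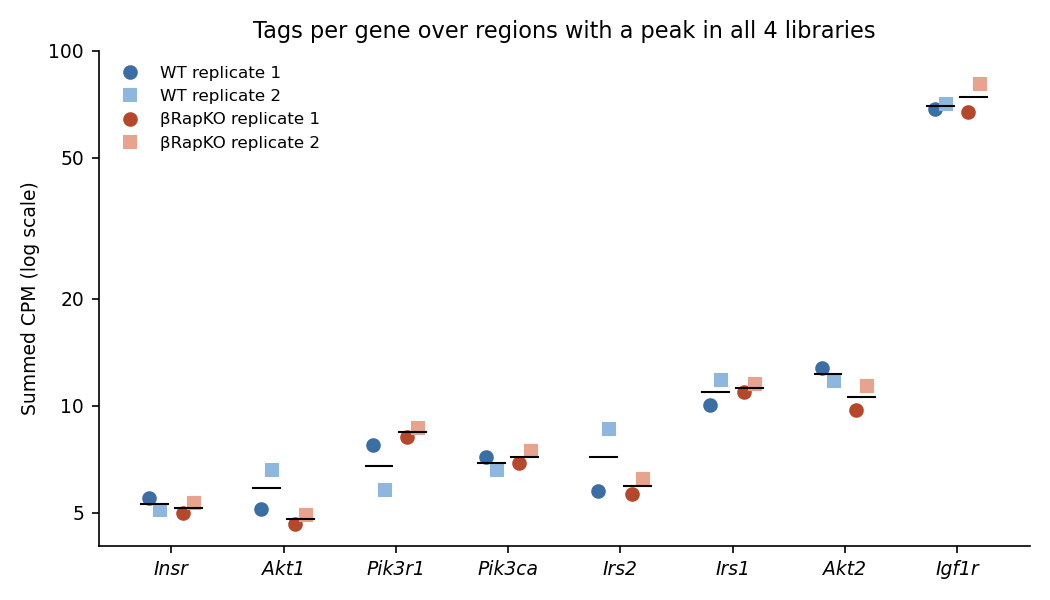
Summed CPM over shared regions (vertical axis, log scale) for the 8 genes that had any, 1 point per library, with bars at the genotype means. Pik3r1 is the one gene with both βRapKO points above both WT points, and Akt1 and Akt2 have both below.

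A wider list of 48 other genes of the pathway, from the ligands to the targets of AKT, had 395 regions, 164 of them shared. None of the 164 passed an FDR of 0.05. By CPM 102 were lower and 62 higher in βRapKO, or 62.2% lower against 60.8% of all regions, with a median log2 fold-change of -0.06. Peaks in WT only were called at 19 regions (4.81%, background 4.16%) and in βRapKO only at 4 (1.01%, background 1.58%). More than 1.5-fold lower were 3 regions (background 1.77%) and as many were higher (background 1.29%). The 4 of these with the most CPM were at Pik3cd, Foxo3, Grb10 and Foxo6. Pik3cd, a PI3K catalytic subunit best known in leukocytes, had 5.04 and 5.30 CPM in WT and 10.6 and 9.56 CPM in βRapKO. Its region (chromosome 4, 149646438 to 149650491) overlaps exon 24 and runs on beyond the end of the gene at 149649168. Its log2 fold-change of 0.96 ± 0.13 (SE, adjusted p = 0.358) turned to -0.59 per kb of peaks, the pattern also seen at region 39 of Igf1r. The relatives of Foxo1, Foxo3 (intron 2) and Foxo6, were at -0.65 ± 0.16 (adjusted p = 0.597) and -0.61 ± 0.18 (adjusted p = 0.780), with -0.04 and -0.70 per kb. Grb10, an imprinted inhibitor of both receptors, was at -0.78 ± 0.32 (adjusted p = 0.858) and -0.33 per kb. The remaining pair was higher, Gab1 (an adaptor, intron 1) at 0.70 and Ptpn1 (a phosphatase of the insulin receptor, intron 1) at 1.07 ± 0.32 (adjusted p = 0.774), with -0.12 and 0.31 per kb. By role, the median was lowest for the 11 regions of the FOXO relatives (-0.31) and the 37 of the adaptors (-0.16) and was nearest to 0 for receptors and binding proteins. Foxo3 held 8 of these 11 regions. Per kb of peaks the gene sums of Foxo3, Foxo4 and Foxo6 were at -0.14, 0.33 and -0.48, beside a median of -0.19 over all genes. The order of the roles was not tested. Of the 4 ligand genes, Ins2, Igf1 and Igf2 had 5 shared regions, 4 lower and 1 higher, while Ins1 had no region.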

How the data were processed

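Islet DNA was enriched for methylated cytosine and sequenced. The authors aligned the reads to mm10 (Bowtie2 2.2.5) and ran the peak caller MACS on every library alone. Its version is 1.4.2 in the file headers and 0.14.2 in the labels. No control was given, the p cutoff was 1e-05, 1 tag was kept per position, and the local background spanned 10000 bp. The deposited tables hold for each peak a raw count of tags, a fold enrichment (a ratio to the local background) and a score, −log10(p) times 10. The score was used only in alternative runs, to rank peaks and to set a stricter peak threshold. Without a control, a deeper library can pass the cutoff more easily, but the part of depth in the number of peaks was not tested. The deepest library, WT replicate 2, had the most peaks. WT replicate 1 had the fewest tags after removal of duplicates (25585533) but 121186 peaks. βRapKO replicates 1 and 2, with 29220997 and 29175287 tags, had 117638 and 119685 peaks.

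Peaks sharing at least 1 bp were joined across libraries and their tags added. Shared regions were compared by a quasi-likelihood test (edgeR 4.0.16 under R 4.3.3, checked on simulated data) with library size set to the tags left after removal of duplicates and no TMM factors. Adjusted p-values (Benjamini-Hochberg) cover all shared regions. SE is that of the fitted log2 fold-change. Genes and exons followed GENCODE M21, with 1 principal transcript per gene. Groups came from the genotype labels. The text names, for each gene, the shared region with the most tags, regions called in 1 genotype, and those past 1.5-fold or an FDR of 0.05. Other regions named in the text were chosen after their values were seen. The members and lists were chosen with earlier results of these data known. Alternatives varied the library size, normalization (TMM), test (DESeq2 1.42.0, limma 3.58.1 on log2 of CPM + 0.5), unit (per kb), peak threshold, joining, tag minimum (50), gene window, replicate block and the set of libraries.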

Additional observations from a re-analysis of the deposited data

How the results depend on the processing

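No region or gene sum of the 9 genes passed an FDR of 0.05 under any alternative run (DESeq2 called 2 of all 75052 regions, neither at these genes). Of all 13365 gene sums, 239 were called per kb of peaks, 1 with the tags inside peaks as the library size, 4 by DESeq2, 4 under the replicate block, 2 without βRapKO replicate 1, 6 without βRapKO replicate 2 and 0 under the other alternatives. The median log2 fold-change of the 36 shared regions, -0.06, turned to 0.095 with the tags inside peaks as the library size, where 9 regions were lower than WT, and moved to -0.20 per kb of peaks, where 31 were lower. The medians of all regions under these alternatives were 0.10 and -0.17, with 31.4% and 79.8% of all regions lower. The median of the 36 regions was near 0 with TMM (-0.0018) and DESeq2 (-0.0047), as was that of all regions (0.0038 and 0.0017). Leaving out 1 library gave medians of -0.10 to 0.018, the latter without βRapKO replicate 1, and 18 to 25 lower regions (50% to 69.4%). Over all regions these medians were -0.10 to -0.028, with 54.6% to 64.6% lower. A stricter peak score of at least 100 left 9 of 14 regions lower (64.3%, against 63.9% of all regions). The 5 regions called in WT only became 1 with stricter peaks and 3 with equal numbers of top-ranked peaks. The 3 called in βRapKO only became 1 with stricter peaks. They became 2 when joining required an overlap of 50% of the shorter peak, and 2 with the gene body as the window. Within 1000 bp of the start, 1 gene (Akt2) had a peak in place of 0. With the tags inside peaks as the library size, region 24 of Igf1r turned to 0.073, region 1 of Irs1 to 0.029 and region 4 of Akt2 to 0.044. Per kb of peaks, region 13 of Insr turned to -0.012, regions 22 and 39 of Igf1r to -0.081 and -0.37, region 3 of Irs2 to -0.39 and region 7 of Pik3r1 to -0.0065. Region 13 of Insr was at -0.0083 with the tags before removal of duplicates. Leaving out 1 library also turned some directions, with ranges of -0.070 to 0.096 for region 13 of Insr, -0.23 to 0.051 for region 24 of Igf1r, -0.26 to 0.0085 for region 1 of Irs1, -0.10 to 0.22 for region 3 of Irs2 and -0.51 to 0.20 for region 4 of Akt2. The causes were not tested.

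The replicate block left 20 regions lower, a median of -0.06 and 0 regions past the FDR. Same-numbered libraries deviated together with a correlation of 0.048 over 75052 regions, which gives no pairing beyond the number. With a library left out, the lone library of its genotype is assumed to vary like the others.

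With 2 libraries per genotype, an exact permutation test could not reach significance and none was run. The peak tables hold no tags outside called peaks, so a region called in some libraries only could not be tested, and a wider call adds tags by itself. Tags per kb depend on the called width as well, since they are divided by it. Peaks with few tags, such as the 33 to 51 tags of Akt2 region 5, leave small differences undetectable.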
